A study of Mus musculus with 6 samples.

Results

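The genes of the subcortical maternal complex were 8 rows of the authors' deposited table, taken by the gene symbols Nlrp5, Ooep, Tle6, Khdc3, Padi6, Zbed3, Nlrp2 and Nlrp4f, out of 10896 genes in all. RNA had been sequenced from 6 samples of 50 mouse oocytes each, at the germinal vesicle stage, which comes before meiosis resumes. All oocytes came from (C57BL x CBA) F1 females. In 3 samples they had grown in vitro, inside follicles that collagenase had freed from the pooled ovaries of 2 to 5 females, 10 to 12 days old. These follicles were cultured on membrane inserts with insulin, transferrin, selenium, 5% fetal bovine serum and 0.01 µg/ml follicle stimulating hormone. For the other group, also 3 samples, oocytes grew in vivo, and a needle released them from the ovaries of females 7 to 11 weeks old into a medium with dbcAMP. The effect of culture and that of donor age cannot be told apart in any comparison below, and whether samples of 1 group shared a culture or an animal is not in the labels. In bulk samples, fewer cells of a type and less RNA per cell cannot be told apart either.

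The subcortical maternal complex is an assembly of proteins under the membrane of the egg that the embryo inherits. Its core is formed by Nlrp5 (also called MATER), Tle6 and Ooep (also called FLOPED), and Khdc3 (also called FILIA), Padi6, Zbed3 and members of the NLR protein family have been tied to it. Mouse embryos whose mothers lack core components stop dividing in early cleavage, and Padi6 and the core are needed for the cytoplasmic lattices, the fibres on which the egg stores proteins. The messenger RNAs are made while the oocyte grows, so the full-grown oocyte studied here carries a stock of them.

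The regions before the starts of the genes that were called different between the groups are shown, since these genes moved in opposite directions. They are the 150 bases before an annotated start, in RefSeq's GRCm38.p6 sequence, read 5′ to 3′ on the strand of the gene. Capitals mark E-boxes (CANNTG, the kind of site bound by dimers of the oocyte factor Figla), elements of the factor Nobox (TAATTG, a variant that ends in A, TAATTA, and a variant with an inner G, TAGTTG) and TATAAA, searched on both strands. Nlrp5, Tle6 and Nlrp2 were lower in vitro, and Zbed3 and Khdc3 higher. Both starts of Nlrp5 are shown, and of the several starts of Tle6 and of Zbed3 the first in RefSeq's table.
Nlrp5, chr7:23403952-23404101, plus strand: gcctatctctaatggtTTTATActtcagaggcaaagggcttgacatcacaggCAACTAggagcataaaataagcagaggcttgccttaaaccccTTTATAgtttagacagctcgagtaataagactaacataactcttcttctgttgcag
Nlrp5, chr7:23385739-23385888, plus strand: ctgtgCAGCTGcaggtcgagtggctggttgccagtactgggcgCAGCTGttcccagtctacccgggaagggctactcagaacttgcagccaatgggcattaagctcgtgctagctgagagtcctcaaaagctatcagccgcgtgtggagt
Tle6, chr10:81600901-81601050, minus strand: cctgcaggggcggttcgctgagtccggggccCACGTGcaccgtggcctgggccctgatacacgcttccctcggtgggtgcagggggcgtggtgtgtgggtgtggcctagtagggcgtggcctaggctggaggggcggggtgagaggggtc
Nlrp2, chr7:5351036-5351185, minus strand: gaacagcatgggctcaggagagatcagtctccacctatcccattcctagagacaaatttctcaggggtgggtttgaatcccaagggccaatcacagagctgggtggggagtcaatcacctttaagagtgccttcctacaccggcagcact
Zbed3, chr13:95323455-95323604, plus strand: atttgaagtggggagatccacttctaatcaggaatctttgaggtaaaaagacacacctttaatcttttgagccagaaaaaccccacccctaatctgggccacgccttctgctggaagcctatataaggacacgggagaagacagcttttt
Khdc3, chr9:73102248-73102397, plus strand: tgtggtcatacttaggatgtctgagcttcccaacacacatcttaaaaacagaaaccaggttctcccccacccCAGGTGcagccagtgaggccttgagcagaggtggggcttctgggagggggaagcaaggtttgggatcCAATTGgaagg
The stretches of Nlrp5 differed, and the one printed first lies downstream of the other. The first held TATAAA at 2 places and a Nobox element, all on the opposite strand, and no E-box. The second held CAGCTG at 2 places. The stretch of Tle6 held CACGTG, and that of Khdc3 held CAGGTG and CAATTG. The stretches of Nlrp2 and of this start of Zbed3 held none of the motifs. RefSeq listed 12 starts for the 8 genes, with windows from 250 bases before to 50 bases after each start. An E-box lay in 11 of these windows, against 64.9% of the 11231 windows of genes in the table, and a base may belong to more than 1 match. A Nobox element lay in 4 windows, of Nlrp5, Ooep and Padi6, against 12.9% of all windows. TATAAA lay in 2 windows, of Nlrp5 and Zbed3, against 7.36% of all. A match describes these letters and shows no binding, and a gene with several starts may not use the one printed.

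Of the 8 genes, 5 differed between the groups by the authors' deposited table: Nlrp5, Tle6 and Nlrp2 fell in vitro, and Zbed3 and Khdc3 rose. A gene was called when its PPEE, read as the posterior probability of equal expression in both groups, was below 0.05 in that table. A PPEE is not a p-value. By this rule 15.1% of all genes passed, 6.75% with a higher and 8.31% with a lower in vitro mean, and 25% of the genes with an in vivo mean of at least 1000 normalised reads passed. Khdc3, at a PPEE of 0.0121, was not called at a PPEE below 0.01, nor in a test on its reads in all libraries, given below. The levels below are the authors' means over a group in normalised reads, for which no SD is at hand. The median change of the 8 genes was -0.57 on the log2 scale, in vitro over in vivo, against 0.02 for all genes. In total the 8 means summed to 51839 normalised reads in vitro and 89417 in vivo, which was 0.756% and 1.35% of all reads in the table.

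**Figure D1:**
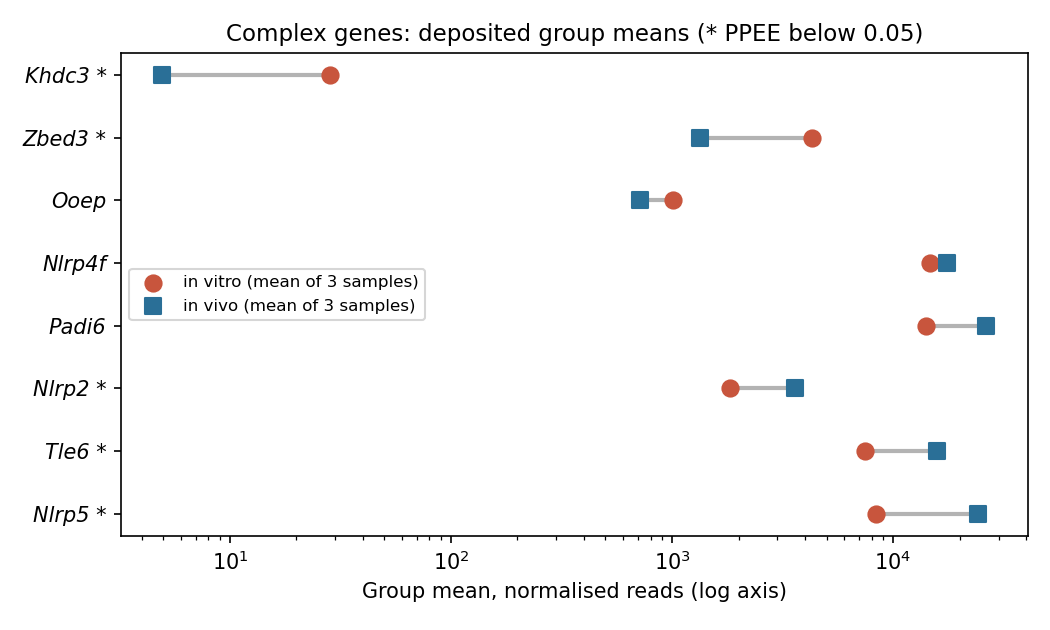
Deposited group means of the 8 complex genes in normalised reads, on a log axis, with circles for in vitro and squares for in vivo. A star marks a PPEE below 0.05. Khdc3 sits far to the left of the other 7 genes, and Khdc3, Zbed3 and Ooep have their in vitro mean on the right.

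Nlrp5 had the largest decrease among genes abundant in vivo, and Zbed3 the largest increase among genes abundant in vitro. Among the 1246 genes with an in vivo mean of at least 1000 normalised reads, Nlrp5 led the decreases in vitro. It was followed by Tax1bp3 at 2.73-fold lower and by Kdm1b, a histone demethylase, at 2.38-fold lower by the means of the authors' deposited table. Tle6 ranked 11, Nlrp2 22 and Padi6 31 in this order, while Nlrp4f ranked 471. Among the 1194 genes with an in vitro mean of at least 1000, Zbed3 led the increases. The next were Slain1 at 3.18-fold and Fam46b at 3.11-fold, whose PPEE in the authors' deposited table were 0.304 and 0.261, and Ooep ranked 116. Each bound on level was set on the group that is higher for that direction. These ranks describe the table and are no test.

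**Figure D2:**
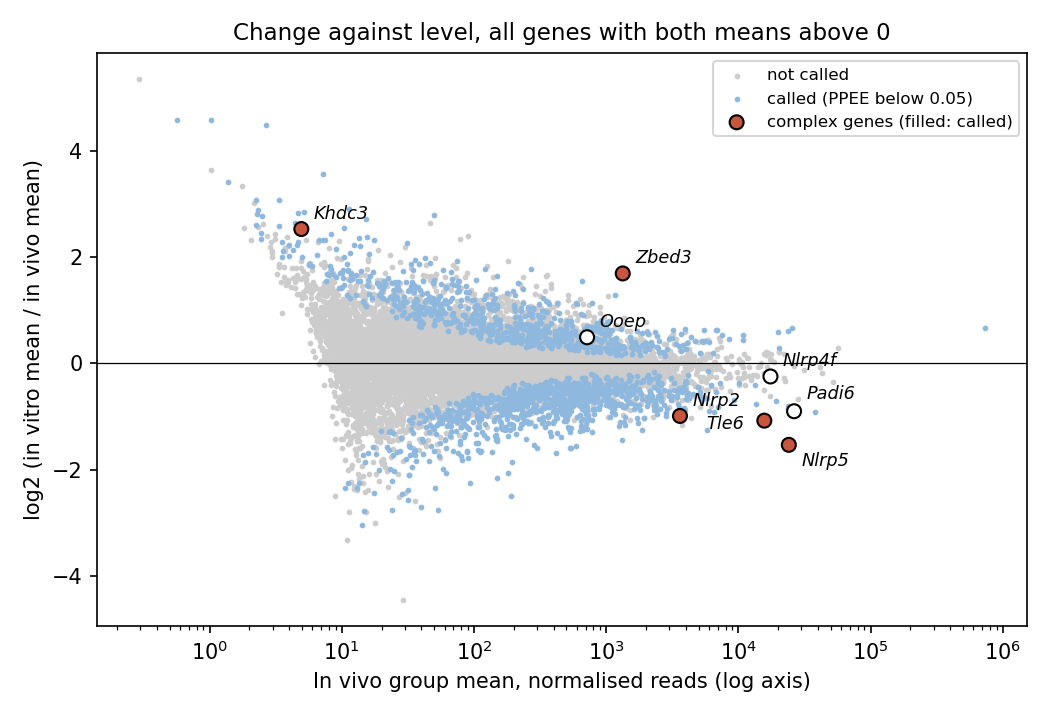
Log2 ratio of the in vitro over the in vivo mean against the in vivo mean in normalised reads (log axis), for all genes with both means above 0. Each small dot is a gene, blue where its PPEE is below 0.05, and the large circles are the complex genes, filled where called. Nlrp5, at -1.53, and Zbed3, at 1.69, lie farthest from 0 among the abundant complex genes.

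Of the core genes, Nlrp5 and Tle6 were called lower in vitro and Ooep was not called. Whether their changes differ from one another was not tested. Nlrp5 (gene identifier 23968), the NLR protein without which the complex is lost, averaged 8330 normalised reads in vitro against 24100 in vivo, a 2.89-fold decrease (PPEE 5.19e-09, the authors' deposited table). Tle6 (gene identifier 114606), a protein of the Groucho family that binds Nlrp5 and Ooep, stood at 7451 in vitro and 15728 in vivo. It was 2.11-fold lower in vitro (PPEE 3.27e-11, the authors' deposited table). Ooep (gene identifier 67968), a small protein with a KH-like domain and the third partner of the core, stood at 1008 in vitro and 718 in vivo. That is 1.40-fold higher in vitro, and Ooep was not called (PPEE 0.951, the authors' deposited table). Per kilobase of the deposited gene length, the level of Nlrp5 was 11.6 times that of Ooep in vivo and 2.84 times in vitro. The level of Nlrp5 per kilobase was 0.880 times that of Tle6 in vivo and 0.642 times in vitro. Without values per sample, these ratios carry no error. The ratio to Ooep also depends on the length used. The deposited length of Ooep is 1207 bases, against 2138 in its longest GENCODE transcript, of which 495 code for protein.

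Khdc3 (gene identifier 66991), a KH domain protein bound to the complex through the core, was the one member at a low level. Its mean of 4.95 normalised reads in vivo lay above only 0.652% of the genes in the authors' deposited table, and its mean of 28.5 in vitro above 20.1%. Its PPEE was 0.0121 in that table. At this level the reads of each library could be solved from the authors' mean, which was possible for 1 of the 8 members. The libraries of a group are called A, B and C by the size of their scaling and cannot be matched to the labels' replicates. Khdc3 had 11, 38 and 29 reads in the in vitro libraries, in the order A, B, C, and 5, 2 and 8 reads in the in vivo ones. After scaling these were 10.1, 39.4 and 36.0 normalised reads in vitro and 4.04, 1.77 and 9.04 in vivo. In vitro library A, at 10.1, stood near in vivo library C, at 9.04. The mean level of Khdc3 in vitro was 28.5 ± 16.0 normalised reads, against 4.95 ± 3.72 in vivo (SD, n = 3 libraries each), a 5.76-fold difference.

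In a test on the recovered reads, the increase of Khdc3 was not called. Limma voom on the recovered reads of 5803 genes gave a log2 change of 2.47 ± 0.80 (SE) and an adjusted p of 0.0697, where 6.38% of these genes passed an adjusted p of 0.05 and 3.53% did so with higher in vitro levels. The fold was 7.61 with in vitro library A left out, 9.80 with in vivo library C left out and 4.36 with in vivo library B left out. Limma voom called the gene when in vitro library A was left out (adjusted p = 0.00210), and the adjusted p reached 0.221 when in vivo library B was left out. Khdc3 also shared sequence with another annotated gene. Of the 1632 different words of 50 bases in its longest GENCODE transcript, 42.8% occurred in Gm20509, another GENCODE gene model. Gm20509 was no row of the table, and how the authors counted reads that fit both models is not given in the sources used here. Its part in the low level of Khdc3 was not tested.

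**Figure D3:**
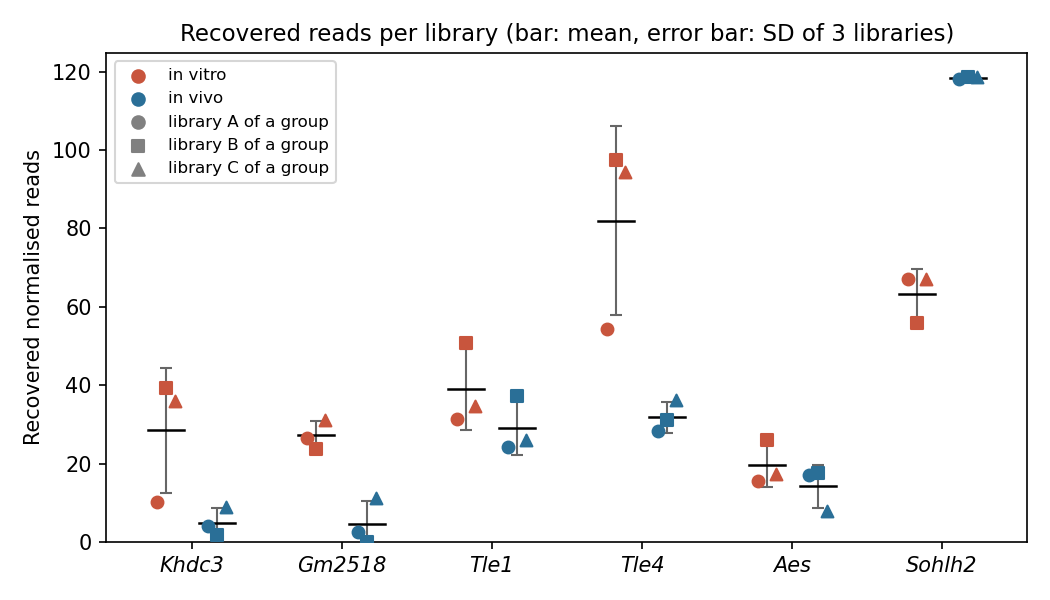
Recovered normalised reads in each library for Khdc3, for Gm2518, the gene nearest to it in level, for 3 Tle paralogues (Tle1, Tle4, Aes) and for Sohlh2. Colours are the groups, shapes the libraries A, B and C of a group, bars the mean and error bars the SD of 3 libraries. In vitro library A of Khdc3, at 10.1, lies just above in vivo library C, at 9.04.

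Padi6 (gene identifier 242726), of the family of enzymes that turn arginine into citrulline and needed for the lattices, was the most abundant member per kilobase in both groups. Padi6 averaged 14141 normalised reads in vitro against 26410 in vivo and ranked 9 in the whole table in vivo. This was 1.87-fold lower in vitro, and yet Padi6 was not called (PPEE 0.717, the authors' deposited table). Of the 40 genes with an in vivo mean of at least 1000 and at least a 1.8-fold decrease in vitro, 32 were called and 8 were not, Padi6 among the latter. These bounds use the means that place Padi6 there, so the count is a description and no test. Too many reads fell on Padi6 for its libraries to be solved, so the spread between them is unknown.

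Zbed3 (gene identifier 72114), a zinc finger protein of the BED type that associates with the complex, rose from 1336 normalised reads in vivo to 4311 in vitro. It was 3.23-fold higher (PPEE 8.97e-05, the authors' deposited table). Its level per kilobase of the deposited length was 0.103 times that of Nlrp5 in vivo and 0.958 times in vitro. By this measure both stood close together in vitro. Per kilobase of coding length, Zbed3 stood above Nlrp5 in vitro and below it in vivo. Zbed3 was 1 of 3 genes with an in vitro mean of at least 1000 and at least a 3-fold increase, and the only one of these that was called. Both bounds use the means that place Zbed3 there, so this count describes the table and is no test.

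The remaining members belong, like Nlrp5, to the NLR family with a pyrin domain. Nlrp2 (gene identifier 232827), a maternal effect gene of the mouse, averaged 1823 normalised reads in vitro against 3620 in vivo, 1.99-fold lower in vitro (PPEE 6.13e-09, the authors' deposited table). Nlrp4f (gene identifier 97895) stood at 14746 in vitro and 17501 in vivo, a decrease of 1.19-fold that was not called (PPEE 0.974, the authors' deposited table). Of the 3 NLR members, 2 were called lower and 0 higher in vitro, where 8.31% of all genes were called lower and 25% of genes with an in vivo mean of at least 1000 were called in either direction. Reads of NLR relatives can be mistaken for one another. Of the 50-base words of the longest coding transcript, 9.04% of those of Nlrp5 occurred in other genes, mostly in the pseudogene Nlrp5-ps. For Nlrp4f this share was 7.08%, mostly with Nlrp4g, and for Nlrp2 it was 0.835%. Padi6 and Zbed3 shared 0 such words, Tle6 shared 1.17% and Ooep 1.39%.

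The order of the members by level per kilobase differed between the groups. In vivo it was Padi6, Tle6, Nlrp5, Nlrp4f, Nlrp2, Zbed3, Ooep and Khdc3. In vitro it was Padi6, Nlrp4f, Tle6, Nlrp5, Zbed3, Ooep, Nlrp2 and Khdc3. Padi6 stood at 11320 normalised reads per kilobase in vivo and 6061 in vitro, and Khdc3 at 2.94 and 16.9. With no spread per sample for 7 of the 8 genes, it cannot be said which neighbours in this order differ. Close pairs were Zbed3 and Ooep in vivo, at 705 and 595 normalised reads per kilobase, and Nlrp5 and Zbed3 in vitro, at 2375 and 2276. As a share of the summed levels per kilobase, Nlrp5 made up 20.6% in vivo and 11.9% in vitro, and Zbed3 2.12% and 11.4%. Dividing by the coding length in place of the whole length reordered 2 of 28 pairs in vivo and 3 of 28 in vitro. In vitro, Zbed3 then passed Nlrp5, Tle6 and Nlrp4f: of its transcript of 1945 bases, 687 code for protein.

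Transcript ends are shown because many stored maternal messages are held silent, with short poly(A) tails, by cytoplasmic polyadenylation elements near their ends. The cDNA kit named in the labels amplifies from poly(A) tails, as background knowledge of it goes. In the last 100 bases of the longest coding GENCODE transcript, TTTTAT or TTTTAAT was found for 2 of the 8 members, against 19.6% of 10114 genes of the table. These were Zbed3, called higher in vitro, and Nlrp4f, not called. The 30 bases that hold the elements are given 5′ to 3′ with T for U. Capitals mark the elements and the poly(A) signals AATAAA or ATTAAA, which overlap here.
Zbed3: tttttTTTTAATAAAcTTTTATttatctgc
Nlrp4f: gTTTTATATTAAAgaatagtagtcatttcc
Nlrp5, Tle6, Nlrp2, Padi6, Khdc3 and Ooep held neither element there. A poly(A) signal lay in the last 100 bases for 7 of the 8 members, all but Ooep, against 81.5% of genes. The GENCODE transcript of Ooep, of 2138 bases, was longer than the 1207 bases the authors used. The GC content of the transcripts was 47.2% for Nlrp5, 56.0% for Tle6 and 44.7% for Nlrp2, the members called lower in vitro. It was 53.9% for Zbed3 and 57.9% for Khdc3, the members called higher. Against a median over genes of 49.3%, both members called higher lay above it, as did Tle6, and Nlrp5 and Nlrp2 lay below. The part of base composition in these changes was not tested.

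Of 22 genes for other proteins of the cytoplasmic lattices, or bound to the complex, all were measured, and 10 were called lower in vitro, 2 higher and 10 not at all in the authors' deposited table. These calls were 54.5% of the list, against 15.1% of all genes and 25% of genes with an in vivo mean of at least 1000, where most of the list lay. The median change was -0.28 on the log2 scale. Nlrp14, an oocyte NLR protein, was 1.88-fold lower in vitro, from 38021 to 20207 normalised reads (PPEE 1.81e-07, the authors' deposited table). Dnmt1, the maintenance DNA methyltransferase, was 1.64-fold lower, and Uhrf1, which recruits it and also sits in the lattices, 1.60-fold lower by the means of the authors' deposited table. Nlrp9a, Nlrp9b and Nlrp9c, picked with values in view, were all called lower by 1.46-fold to 1.52-fold in the authors' deposited table. The called increases were Cfl1, the actin severing protein cofilin, at 1.67-fold and the tubulin Tubb4b at 1.34-fold in the authors' deposited table. Dppa3, a maternal factor that protects DNA methylation in the zygote, was 1.11-fold higher (PPEE 0.997, the authors' deposited table).

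**Figure D4:**
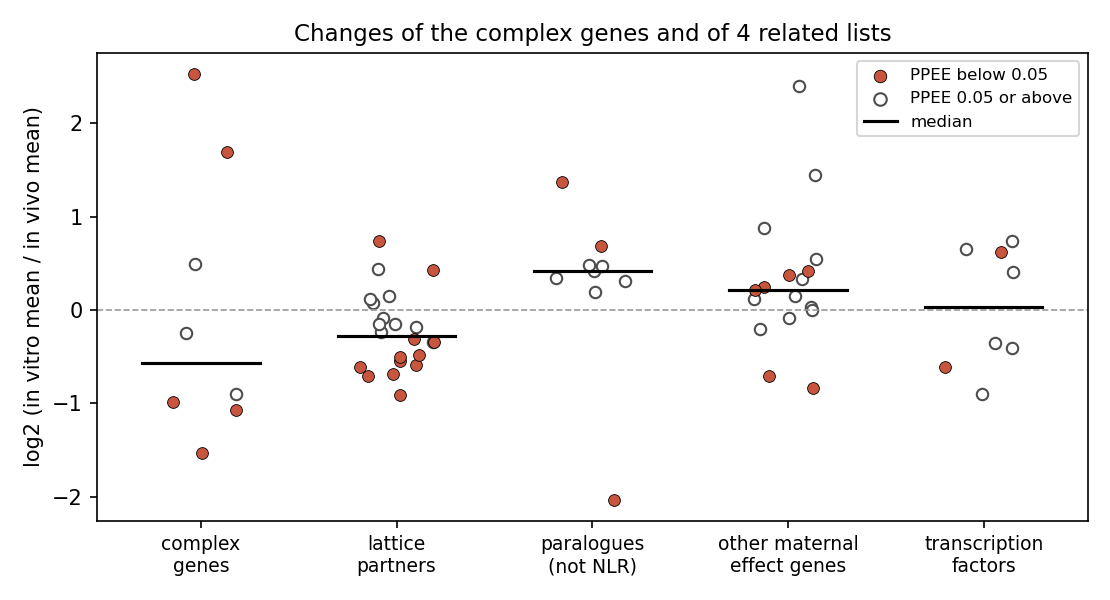
Log2 ratio of the in vitro over the in vivo mean for each measured gene of the complex and of 4 related lists, filled where the PPEE is below 0.05, with the median of each list as a line. Dots are spread sideways only to be seen apart, and Dnmt1 and Dppa3 stand in 2 lists. Among lattice partners 10 filled dots lie below 0 and 2 above, with a list median of -0.28.

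Of 16 relatives of the members outside the NLR family 9 were measured, of which 2 were called with an increase and 1 with a decrease in vitro (33.3%, against 15.1% of all genes), with a median change of 0.42 on the log2 scale. For so short a list, with calls in both directions, this share is no result about the relatives. Tle4, a Groucho corepressor related to Tle6, was 2.58-fold higher in vitro (PPEE 0.000478, the authors' deposited table). It had 59, 94 and 76 recovered reads in the in vitro libraries and 35, 35 and 32 in the in vivo ones. Limma voom called it (adjusted p = 0.0294), and with any library other than in vitro library A left out the adjusted p lay between 0.0519 and 0.122. Zbed4 was 1.61-fold higher and Padi2, an arginine deiminase of other tissues, 4.09-fold lower by the means of the authors' deposited table. Padi2 averaged 6.12 normalised reads in vitro against 25.1 in vivo, far below Padi6. Dppa5a, a relative of Ooep and its neighbour on the chromosome, was 1.39-fold higher in vitro (PPEE 0.951, the authors' deposited table).

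Of 19 other maternal effect genes 17 were measured, of which 4 were called higher and 2 lower (35.3%, against 15.1% of all genes), and the median change was 0.21 on the log2 scale. With calls in both directions in so short a list, this share is no result about these genes. Dnmt1, 1 of the lower ones, also stands among the lattice partners. Ago2, the slicing Argonaute, was 1.79-fold lower, Ctcf, an insulator protein, 1.34-fold higher and Zfp57, which guards imprints, 1.29-fold higher by the means of the authors' deposited table. Npm2, a histone chaperone of the egg, was 1.09-fold higher (PPEE 0.897, the authors' deposited table). Of 9 oocyte transcription factors 8 were measured, 1 called higher and 1 lower, with a median change of 0.03. This share of 25% was near the 15.1% of all genes for so short a list and is no result about these factors. Obox5 was 1.54-fold higher and Gtf2a1l 1.53-fold lower by the means of the authors' deposited table. For Figla, the factor whose dimers bind E-boxes, the in vitro libraries held 29, 46 and 17 recovered reads and the in vivo ones 30, 31 and 5. The groups overlapped, and limma voom gave an adjusted p of 0.314. Nobox averaged 8534 normalised reads in vitro against 11321 in vivo and was not called (PPEE 0.915, the authors' deposited table).

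Genes with group means like those of the called members did not always have a like PPEE. Likeness was the distance over both log2 group means. Khdc3 lay nearest to Gm2518, a pseudogene, at a distance of 0.13, with 27.2 normalised reads in vitro and 4.57 in vivo. Its PPEE in the authors' deposited table was 1.00 when rounded, against 0.0121 for Khdc3. In recovered reads Gm2518 had 29, 23 and 25 in vitro and 3, 0 and 10 in vivo, and limma voom called it (adjusted p = 0.0315, from 0.00909 to 0.115 with 1 library left out, and called only on leaving out in vitro library A or in vivo library C). Nlrp2 lay nearest to Lrrc16a, at 2.23-fold lower with a PPEE of 0.249, and Tle6 to Lamb1, a laminin chain, at 1.70-fold lower (PPEE 0.00178, the authors' deposited table). Nlrp5 and Zbed3 had no close neighbour: the nearest were Dnmt1, at a distance of 0.59, and Socs7, at 0.62. Over the 5803 genes with recovered reads, the PPEE called 547 and limma voom 370. Both called 278, which is 50.8% of the former and 75.1% of the latter.

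Of the 16 nearest protein-coding genes in RefSeq's order, 8 were in the table and 2 were called, where 15.1% of all genes were, so the count is no result about these neighbours. Sirt6, beside Tle6, was 1.38-fold higher in vitro and Rsl24d1, beside Khdc3, 1.21-fold lower by the means of the authors' deposited table. Tle2 overlaps Tle6 in RefSeq and was no row of the table, and the labels do not say whether strand was used in counting. Aggf1, beside Zbed3, and Rcc2, beside Padi6, were 2.98-fold and 2.15-fold higher in vitro by the authors' means and were not called (PPEE 0.264 and 0.152, the authors' deposited table).

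Oocyte markers other than Figla were high in both groups. Gdf9 averaged 37810 normalised reads in vitro against 43120 in vivo and Zp3 17766 against 28274. Of 10 oocyte markers 2, Bmp15 and Kit, were called, both lower in vitro. With 20% called, against 15.1% of all genes, this count is no result about these markers. Among those not called, Oosp1, Mos and Figla had higher in vitro means. Gdf9, Zp1, Zp2, Zp3 and Ddx4 had lower ones. Of 11 granulosa and cumulus markers 8 were in the table. Their means summed to 403 normalised reads in vitro and 291 in vivo, and Fshr and Inha were called higher in vitro by the PPEE. This share of 25%, against 15.1% of all genes, is no result about so short a list. Of those not called, Cyp19a1 and Hsd17b1 had higher in vitro means, at 1.43-fold and 4.55-fold. Cyp11a1, Nr5a2, Kitl and Gja1 had lower ones, at 1.67-fold, 1.26-fold, 1.08-fold and 1.02-fold. In recovered reads limma voom called Inha (adjusted p = 0.00702) but not Fshr, with 37 reads in vitro and 8 in vivo (adjusted p = 0.118). The granulosa markers Amh, Amhr2 and Foxl2 and all 8 theca and stroma markers were no rows of the table, and of 6 blood and endothelium markers only Pecam1 was, called lower in vitro (561 against 849 normalised reads). The part of these cells in the changes of the complex genes was not tested. Recovered reads over the solved genes numbered 288499 to 431515 per library.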

How the data were processed

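Per the labels, a low input kit turned 10 ng of RNA per sample into amplified cDNA, which can add spread for rare transcripts. Per the submitters' processing notes, BWA and the build mm9 were used; the counter and the scaling are not given in the sources used here. The authors deposited, for each gene, a signal in both groups (normalised reads averaged over 3 samples and not divided by length), a gene length, a PPEE and a log2 ratio with in vivo on top. Folds were computed from both means.

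Since whole reads times a fixed step per library add up to each mean, reads of low genes can be solved. The steps were found from repeated differences among low means, and means up to 200 were solved to the 10 digits of the table. A single solution was found for 95.1% of these means in vitro and 95.4% in vivo. The step search and the fit were tested on simulated data. The in vitro libraries had size factors of 1.09, 0.965 and 0.806, those in vivo 1.24, 1.13 and 0.885. Reads were fitted with limma 3.58.1 (voom, 2-sided, Benjamini-Hochberg over 5803 genes) in R 4.3.3. Reads carry no molecular identifiers, and p-values measure only the spread between these samples. Promoters came from RefSeq (GRCm38.p6), where all 8 members matched, and transcripts from GENCODE M21, of the same build. No coordinates in the files' build were used.

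The members, lists and alternatives were chosen with earlier results of these data known. Named were all 8 members, in each list the 2 largest called increases and decreases and Nlrp14, Uhrf1, Dppa3, Npm2, Figla and Nobox, and the gene nearest to each called member. Outside this rule, genes were named by rank among abundant genes, as chromosomal neighbours or as cell markers, and Nlrp9a, Nlrp9b, Nlrp9c, Dppa5a, Aggf1, Rcc2, Sohlh2 and Zar1 were chosen after their values were seen. A planned comparison of the proteins was not made.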

Additional observations from a re-analysis of the deposited data

How the results depend on the processing

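The log2 changes of the 8 members kept their direction in all 32 combinations of member and alternative (centring on the median of all genes, scaling to equal sums, and pseudocounts of 1 and 10). This could not have come out otherwise, so it is no test. An equal pseudocount cannot change the sign of a change. The shifts, 0.0155 for the median and 0.0504 for the sums, were smaller in size than the smallest change, -0.247 for Nlrp4f. The log2 change of Khdc3 fell from 2.53 to 1.36 with a pseudocount of 10. At a PPEE below 0.01 or below 0.001, 1 member in place of 2 was called higher in vitro, since Khdc3 was lost, and the 3 lower calls did not change in number. With at least a 1.5-fold change, 12 in place of 22 genes of the 4 related lists were called, 4 in place of 9 higher and 8 in place of 13 lower, and at a PPEE below 0.001 5 were called higher. In recovered reads, 0 to 1 members were called when 1 library was left out, and 29 (without in vitro library C) to 1035 genes (without in vitro library A) in place of 370. Trimmed mean scaling gave Khdc3 an adjusted p of 0.0654 with limma voom and called 373 genes, and a minimum of 10 reads removed no gene. No paired analysis was possible because the deposited columns are group means and carry no replicate numbers. The order by RefSeq coding length was not run; GENCODE coding lengths, chosen after seeing the data, were used. Of the members, 7 have no value per sample.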

Other observations

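Sohlh2, an oocyte transcription factor singled out after its values were seen, had a PPEE of 1 as listed in the authors' deposited table. The in vitro libraries held 73, 54 and 54 recovered reads of Sohlh2, and those in vivo 146, 134 and 105. After scaling these stood at 63.4 ± 6.39 and 118 ± 0.346 normalised reads (SD, n = 3 libraries each), and limma voom gave an adjusted p of 0.0320, from 0.0156 to 0.121 with 1 library left out, and below 0.05 only on leaving out in vitro library A. A PPEE of exactly 1 was listed for 1627 of the 10896 genes. Of the 370 genes that limma voom called, 49 (13.2%) had a PPEE above 0.95 in the authors' deposited table. Zar1, a maternal effect gene also singled out after its values were seen, was 5.27-fold higher in vitro, from 90.5 to 477 normalised reads (PPEE 0.193, the authors' deposited table).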
